A study of Mus musculus with 6 samples.

Results

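The 10 genes described here encode receptors for the constant (Fc) part of immunoglobulins, the triggering receptors Trem1 and Trem2, and the small signalling adaptors these receptors depend on. They were taken by gene name from the 36629 genes of the deposited files: Fcgr1, Fcgr2b, Fcgr3, Fcgr4, Fcgrt, Fcer1g, Tyrobp, Hcst, Trem2 and Trem1. All 10 had a value in every library. Injured cord (SCI, for spinal cord injury; 3 libraries) came from C57/BL6 mice aged 3 to 5 weeks whose thoracic cord was laid open by laminectomy at T9 and T10 and then crushed for 5 s with a 60 g vascular clip. The sham group (3 libraries) came from mice of the same strain and age range that had the laminectomy without the crush; its treatment label reads untreated. Cord of segments T8 to T12 was taken 3 days after surgery in both groups, and polyadenylated RNA was sequenced. The labels do not say whether each library is 1 animal, so p-values measure the spread between these libraries, and a piece of this length holds cord on either side of the crush.

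Myeloid Fc receptors and TREM proteins mostly lack signalling sequences of their own. They sit in the membrane beside a short adaptor, Fcer1g (the common Fc receptor gamma chain) or Tyrobp (DAP12), whose tail carries an immunoreceptor tyrosine-based activation motif (ITAM). Once its tyrosines are phosphorylated by Src-family kinases, an ITAM recruits the kinase Syk. Hcst (DAP10) carries a different tyrosine motif that recruits phosphoinositide 3-kinase. Fcgr2b is the inhibitory Fc gamma receptor, with an inhibitory motif (ITIM) that recruits phosphatases. In the healthy cord most of these genes are known chiefly from microglia and other macrophages. Fcgrt, the neonatal Fc receptor, is also known from endothelium.

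Seen along the genome (GRCm38), the members lie in a few neighbourhoods. On chromosome 1, Fcgr2b (170958617 to 170976547, minus strand), Fcgr4 (171018920 to 171029761, plus strand) and Fcgr3 (171051174 to 171064935, minus strand) follow each other, and Fcer1g (171229572 to 171234365, minus strand) lies 165 kb further on. On chromosome 7, Tyrobp (30413760 to 30417582, plus strand) and Hcst (30417712 to 30419854, minus strand) face each other with 129 bases between their ends, and Fcgrt spans 45092990 to 45103851 on the minus strand. On chromosome 17, Trem1 (48232768 to 48246924) and Trem2 (48346401 to 48354147) are both on the plus strand, 99.5 kb apart. Fcgr1 lies on chromosome 3 from 96282909 to 96293969, minus strand. Values are totals over each gene. Genes overlapping a member had mean levels of at most 0.147 FPKM. Fcgr2b and Fcgr3 share stretches of sequence: 10.2% of the 50-base windows in coding transcripts of Fcgr3 also occur in those of Fcgr2b, so reads could be divided between them and their values are uncertain to that extent.

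RefSeq promoters (GRCm38.p6) were at hand for 9 of the 10 genes. The sequence GAGGAA or its complement TTCCTC is the core of sites bound by the myeloid factor PU.1 (Spi1). It occurred within 250 bases upstream of a start site in 5 of these 9 genes. Counted by promoter, it occurred in 6 of the 10 promoters of these genes, against 23.3% of all 32851 promoters. The Fcgr3 promoters overlap and hold the same site, at −6 or −15 depending on the start site, so this count holds that site more than once. The AP-1 sequence TGACTCA or TGAGTCA occurred in none of the 9, against 4.46% of all promoters. The GAGGAA or TTCCTC core was absent from this window in Fcer1g, Fcgr2b, Hcst and Fcgrt. Their log2 changes, described below, were 3.49, 3.48, 1.26 and 0.0033. The stretches that hold the core are shown to place it relative to each start site; each is 60 bases, 5′ to 3′ on the strand of its gene, with the core in capitals. They lie at chr3:96293984-96294043 (minus strand) for Fcgr1, chr1:171059404-171059463 (minus) for Fcgr3, chr1:171018866-171018925 (plus) for Fcgr4, chr17:48346341-48346400 (plus) for Trem2 and chr17:48232558-48232617 (plus) for Trem1.
Fcgr1: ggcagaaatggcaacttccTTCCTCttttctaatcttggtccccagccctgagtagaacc
Fcgr3: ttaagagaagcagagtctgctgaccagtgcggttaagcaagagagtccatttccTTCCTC
Fcgr4: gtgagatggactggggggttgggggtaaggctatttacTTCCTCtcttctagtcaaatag
Trem2: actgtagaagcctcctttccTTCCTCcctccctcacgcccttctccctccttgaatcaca
Trem1: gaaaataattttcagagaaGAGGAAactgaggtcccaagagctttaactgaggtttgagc
Such a match is a description of the letters and not a binding site. The Fcgr3 stretch lies inside the span of the gene given above, so the start site it precedes is an internal one.

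Of the 10 genes, 9 rose in the injured cord and 1, Fcgrt, did not pass the test. Across all 17435 genes tested, 26.7% rose, 30.8% fell and 57.5% changed in either direction. The SCI and sham libraries did not overlap, with SCI higher, for the same 9 members and for 30.7% of all genes tested; 67.6% of all genes did not overlap in either direction. The values are the authors' FPKM (fragments per length of transcript, scaled to the size of the library), which allow levels to be compared between genes. Tests used limma on log2(FPKM + 1) with Benjamini-Hochberg adjustment over all genes tested, an adjusted p under 0.05 being the threshold. Log2 changes are SCI minus sham on that scale. All 10 genes met the filter of 1 FPKM in 3 libraries, but Hcst and Trem1 met it through the SCI libraries alone and so had to differ. The members had a median log2 change of 3.08, against −0.08 over all genes tested. A rise of at least 2 on the log2 scale was found in 8 members and in 3.48% of all genes tested. None of the 9 calls was lost when any 1 library was left out.

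**Figure D1:**
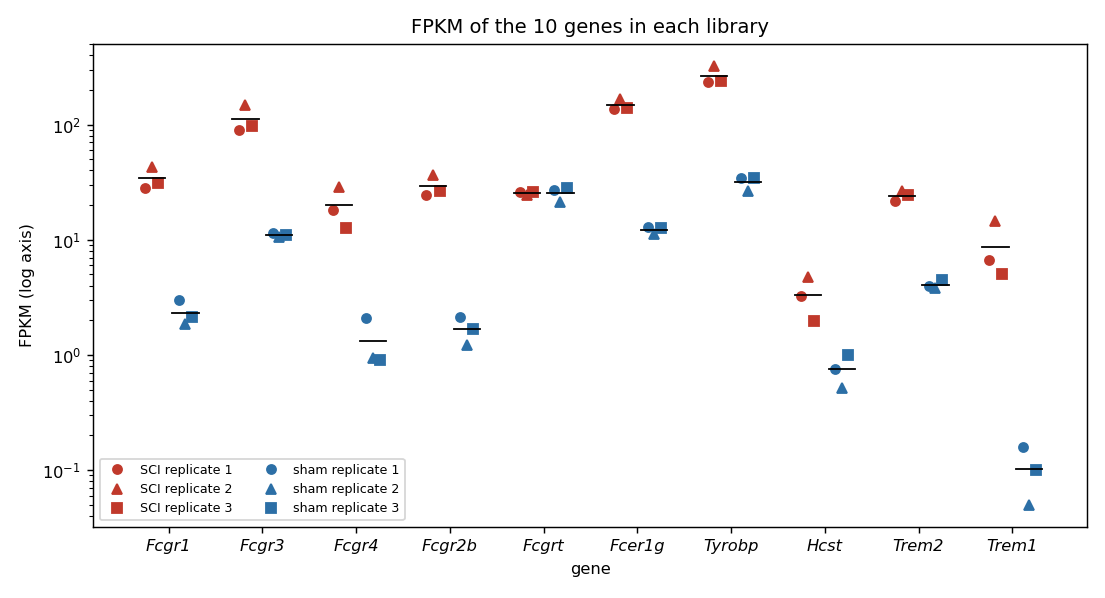
FPKM of each gene (log axis) in the 3 SCI libraries (red, left of each pair) and the 3 sham libraries (blue, right); marker shapes give the replicate and black lines the group mean. The groups stand apart for every gene except Fcgrt, where SCI values of 24.3 to 26.1 lie within sham values of 21.2 to 28.2.

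Fcgr1, the high-affinity receptor for immunoglobulin G, had 27.9, 43.3 and 31.3 FPKM in SCI replicates 1, 2 and 3, against 3.02, 1.84 and 2.12 FPKM in sham replicates 1, 2 and 3. The lowest injured library stood far above the highest sham library. The means were 34.1 ± 8.06 FPKM in SCI and 2.33 ± 0.617 FPKM in sham libraries (SD, n = 3 each), a 14.7-fold rise with a log2 change of 3.39 (SE 0.19, limma adjusted p = 2.4e-05).

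Fcgr3, an activating receptor of low affinity, was the most abundant Fc gamma receptor in both groups. It had 90.3, 147 and 96.5 FPKM in SCI libraries and 11.4, 10.5 and 11 FPKM in sham libraries. The sham libraries were close together, while SCI replicate 2 stood above the other injured libraries. Fcgr3 rose 10.1-fold (log2 change 3.19, SE 0.18, limma adjusted p = 2.1e-05).

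Fcgr4, an activating receptor for certain immunoglobulin G subclasses in mice, had 18.2, 28.8 and 12.7 FPKM in SCI libraries and 2.09, 0.94 and 0.90 FPKM in sham libraries. The groups did not overlap, although the injured libraries differed by more than 2-fold among themselves. It rose 15.2-fold (log2 change 3.14, SE 0.31, limma adjusted p = 2.2e-04), with the widest interval of the 4 Fc gamma receptors, from 2.42 to 3.86.

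Fcgr2b, the inhibitory receptor, rose as well. It had 24.5, 36.3 and 26.4 FPKM in SCI libraries and 2.12, 1.23 and 1.67 FPKM in sham libraries, a 17.4-fold rise (log2 change 3.48, SE 0.18, limma adjusted p = 1.8e-05). Of the summed FPKM of the 4 Fc gamma receptors, Fcgr2b made up 15.1% ± 0.802 in SCI libraries and 10.2% ± 1.52 in sham libraries, and Fcgr3 made up 57.2% ± 0.930 in SCI and 67.9% ± 5.92 in sham libraries (SD, n = 3 each). The activating receptors Fcgr1, Fcgr3 and Fcgr4 together stood at 5.57, 6.04 and 5.33 times Fcgr2b in SCI libraries, against 7.79, 10.8 and 8.40 times in sham libraries. This ratio was lower in every injured library, by 0.66 on the log2 scale. Its exact two-sided permutation p was 0.1 (adjusted p = 0.127 over the 19 ratios compared), and 0.1 is the smallest that 3 against 3 can give. With 1 FPKM added to each value the log2 difference was −0.26. The sequence that Fcgr2b shares with Fcgr3 bears on this ratio; its part in the result was not tested.

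Fcgrt carries immunoglobulin G and albumin across cells and back out of endosomes, and its product pairs with beta-2 microglobulin (B2m). It had 25.9, 24.3 and 26.1 FPKM in SCI libraries and 27.3, 21.2 and 28.2 FPKM in sham libraries. The injured libraries lay inside the sham range. Its log2 change was 0.0033, with a 95% interval from −0.27 to 0.28 (limma adjusted p = 0.98); a p that misses the threshold does not show that the groups are alike, but a rise of the size of any other member lies outside this interval. Its partner B2m rose 2.34-fold, to 768 ± 66.4 FPKM in SCI against 327 ± 59.5 FPKM in sham libraries (limma adjusted p = 3.9e-04). Fcgrt per B2m was lower in all SCI libraries (log2 difference −1.24, exact permutation p = 0.1).

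**Figure D2:**
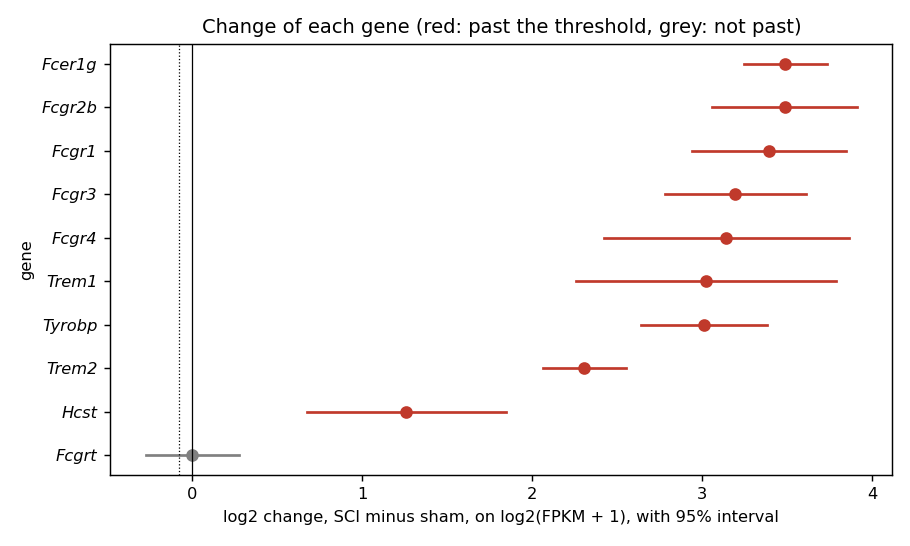
Log2 change (SCI minus sham, on log2(FPKM + 1)) of each gene with its 95% interval from limma, ordered by size; the dotted line is the median of all genes tested. The intervals of 8 genes lie above 2, Trem2 closest to it at 2.06 to 2.55, while Hcst spans 0.68 to 1.84 and Fcgrt spans 0.

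Among the adaptors, Tyrobp, which serves Trem2, Trem1 and many other myeloid receptors, was the most abundant of the 10 genes in both groups. It had 232, 323 and 240 FPKM in SCI libraries and 34.6, 26.5 and 34.6 FPKM in sham libraries. The groups were far apart, and the rise was 8.31-fold (log2 change 3.01, SE 0.16, limma adjusted p = 1.8e-05).

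Fcer1g, the adaptor of the activating Fc receptors, had 137, 168 and 138 FPKM in SCI libraries and 12.97, 11.2 and 12.6 FPKM in sham libraries. It rose 12.1-fold with the largest log2 change of the 10 genes on this scale, 3.49 (SE 0.10, limma adjusted p = 7.8e-06). Of all genes tested, 0.551% had a larger rise on this scale. Fcgr2b was close behind at 3.48. By the ratio of means, Fcgr1 (14.7), Fcgr4 (15.2), Fcgr2b (17.4) and Trem1 (84.6) rose more than Fcer1g. Tyrobp stood at 1.69, 1.92 and 1.73 times Fcer1g in SCI libraries, against 2.66, 2.37 and 2.75 times in sham libraries. The ratio was lower in every injured library (log2 difference −0.54, exact permutation p = 0.1, adjusted p = 0.127). Fcgr1, Fcgr3 and Fcgr4 together stood at 0.994, 1.304 and 1.01 times Fcer1g in SCI libraries and 1.27, 1.19 and 1.12 times in sham libraries. Here the groups overlapped (log2 difference −0.12, exact permutation p = 0.4; −0.26 with 1 FPKM added).

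Hcst, the adaptor of the killer-cell receptor NKG2D (Klrk1), was the lowest adaptor. It had 3.27, 4.74 and 1.99 FPKM in SCI libraries and 0.76, 0.52 and 0.99 FPKM in sham libraries. It rose 4.41-fold (log2 change 1.26, SE 0.25, limma adjusted p = 0.0043), and its log2 change was 1.96 with a pseudocount of 0.1. Hcst per Tyrobp was lower in all injured libraries (log2 difference −0.95, exact permutation p = 0.1), and −1.75 with 1 FPKM added. Its receptor Klrk1 was at 0.05 to 0.16 FPKM in SCI and at 0 to 0.06 FPKM in sham libraries, and Ncr1, a defining gene of natural killer cells, was listed at 0 in every library except SCI replicate 2 (0.14 FPKM). The 5 natural killer markers summed to 0.38 to 0.75 FPKM in SCI and 0.30 to 1.34 FPKM in sham libraries, and none of them was high enough to test.

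Trem2, the microglial receptor for lipids and lipoproteins, had 21.7, 26.3 and 24.6 FPKM in SCI libraries and 3.97, 3.79 and 4.48 FPKM in sham libraries. Both groups were tight, and the rise was 5.92-fold (log2 change 2.31, SE 0.10, limma adjusted p = 1.2e-05). Per Tyrobp, Trem2 was lower in every injured library, at 0.0934, 0.0813 and 0.102 in SCI against 0.115, 0.143 and 0.129 in sham libraries (log2 difference −0.48, exact permutation p = 0.1).

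Trem1, which amplifies inflammation in neutrophils and monocytes, was barely present in sham cord. It had 6.65, 14.5 and 5.05 FPKM in SCI libraries and 0.16, 0.05 and 0.10 FPKM in sham libraries. The ratio of the means was 84.6. With 1 FPKM added, its log2 change was 3.02 (SE 0.32, limma adjusted p = 3.3e-04), and it was 5.33 with a pseudocount of 0.1, so the size depends on sham values near 0. Trem1 stood at 0.307, 0.553 and 0.206 times Trem2 in SCI libraries, against 0.0403, 0.0132 and 0.0223 times in sham libraries. This ratio was higher in every injured library (log2 difference 3.84, exact permutation p = 0.1, adjusted p = 0.127), and 0.72 with 1 FPKM added. Trem1 per Tyrobp was higher by 3.36, but by 0.013 with 1 FPKM added, when the groups overlapped (exact permutation p = 0.9). Even in the injured cord, Trem2 remained the more abundant of the pair in each library.

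**Figure D3:**
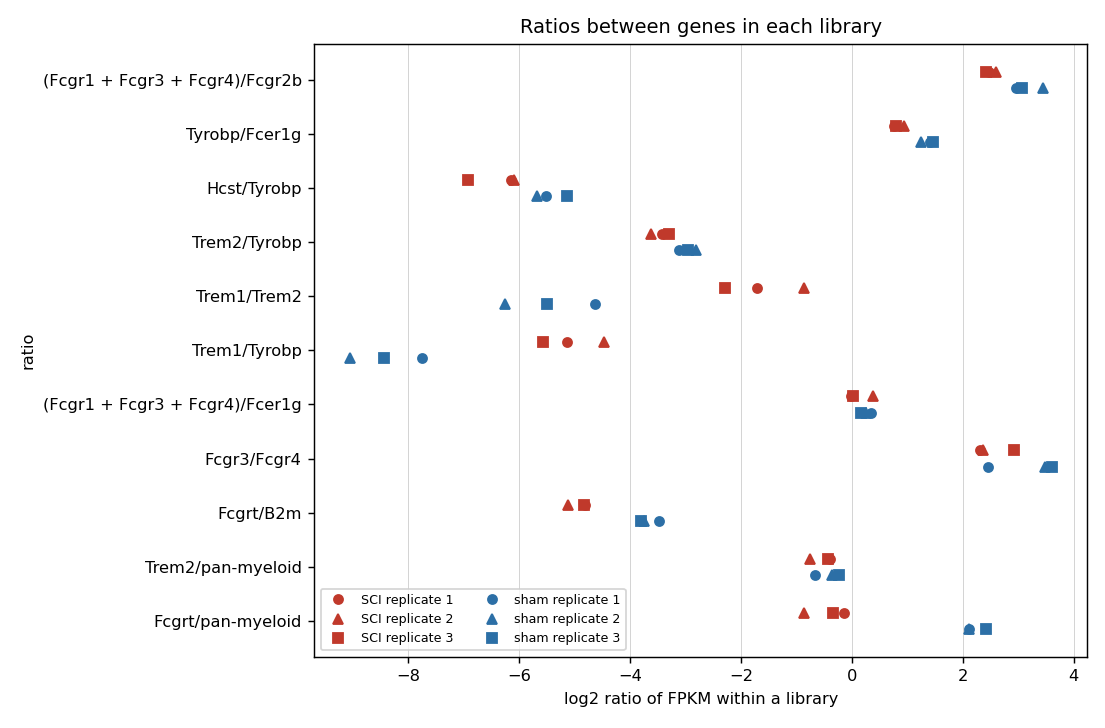
Log2 of the FPKM ratio between genes within each library, SCI in red above sham in blue; pan-myeloid is the geometric mean of Itgam, Csf1r, Aif1 and Ptprc. The SCI and sham points are apart for 8 of the 11 ratios drawn, among them Trem1/Trem2 and Fcgrt over the pan-myeloid genes; Trem1/Tyrobp is apart here but not once 1 FPKM is added to each value. They overlap for Fcgr3/Fcgr4, the activating receptors over Fcer1g, and Trem2 over the pan-myeloid genes.

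By level, Tyrobp, Fcer1g and Fcgr3 led the 10 genes in the injured cord at 265 ± 50.4, 148 ± 17.4 and 111 ± 31.2 FPKM (SD, n = 3), and Trem1 and Hcst closed the order at 8.74 ± 5.07 and 3.33 ± 1.38 FPKM. Between them, Fcgr1, Fcgr2b, Fcgrt, Trem2 and Fcgr4 each overlapped their neighbours within this stretch of the order, and Fcgr4 overlapped Trem1 as well. In sham cord Fcgrt (25.5 ± 3.84 FPKM) stood second after Tyrobp (31.9 ± 4.66 FPKM), with overlapping ranges, and both were above Fcer1g (12.2 ± 0.943 FPKM) and Fcgr3 (10.98 ± 0.435 FPKM). Trem2 (4.08 ± 0.358 FPKM) lay above Fcgr1 in sham cord, whereas Fcgr1 lay above Trem2 in the injured cord.

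Myeloid genes in general were higher in the injured cord, and in a whole piece of tissue more cells of a type and more RNA per cell cannot be told apart. All 5 pan-myeloid markers rose, among them Cd68 (log2 change 4.27), Itgam (3.27), Aif1 (2.33) and Csf1r (1.67). The 8 microglial markers summed to 607 to 726 FPKM in SCI and 193 to 210 FPKM in sham libraries, the 8 monocyte and macrophage markers to 1353 to 2389 and 118 to 162 FPKM, and the 9 neutrophil markers to 158 to 717 and 21.3 to 49.4 FPKM. All tested members of these 3 lists rose, but 6 of the 8 monocyte and macrophage markers and 2 of the 8 neutrophil markers tested had no sham library at 1 FPKM and so had to differ. The neutrophil gene Ly6g was at 0.19 to 0.93 FPKM in SCI and was listed at 0 in 2 of the 3 sham libraries (0.49 FPKM in the other). Neuron and oligodendrocyte markers, which define the tissue, were present throughout but lower in the injured cord. In each of these lists of 5 genes, 4 fell and 1 did not pass. The neuron markers summed to 905 to 1504 FPKM in SCI and 2622 to 3056 FPKM in sham libraries. For oligodendrocytes the sums were 4074 to 4966 FPKM in SCI and 6781 to 7378 FPKM in sham libraries. The part of these cells in the members' changes was not tested.

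Set against the geometric mean of Itgam, Csf1r, Aif1 and Ptprc in the same library, the members gave a wide range of differences, several of which depended on how the ratio was formed. Trem1 was higher in SCI than in sham libraries by 3.73 on the log2 scale, Fcgr2b by 1.46, Fcgr4 by 1.29, Fcgr1 by 1.21, Fcer1g by 0.92, Fcgr3 by 0.63 and Tyrobp by 0.37, and for each of these the groups did not overlap. Trem2 stood at 0.756, 0.590 and 0.746 times this mean in SCI libraries and at 0.632, 0.776 and 0.851 times in sham libraries, so the groups overlapped (log2 difference −0.11, exact permutation p = 0.5, and 0.0077 without SCI replicate 2). Hcst also overlapped (−0.57, exact permutation p = 0.3). Fcgrt was lower by 2.67, again with groups apart. With 1 FPKM added to each value, the difference was 0.69 for Trem1, 0.81 for Fcgr4, 0.68 for Tyrobp and −1.07 for Hcst. Fcer1g (1.16), Fcgr2b (1.15), Fcgr1, Fcgr3 and Fcgr4 then all stood above Trem1. Cd68, which rose most of the 5 pan-myeloid markers, was not in this mean. With it included, an alternative chosen after seeing the data, Tyrobp differed by 0.028 and its groups overlapped (exact permutation p = 0.8). Fcgr3 then differed by 0.29, Fcer1g by 0.57 and Fcgr4 by 0.94, the last with overlapping groups, and Trem2 was lower in every injured library (−0.45, exact permutation p = 0.1). The smallest p this design allows is 0.1, and it was reached for 15 of the 19 ratios, where the adjusted p was 0.127.

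The injured libraries did not rise equally. All 9 genes that rose were highest in SCI replicate 2, against 60.2% of all genes that rose. This library also had the highest haemoglobin share, 6.16% of its FPKM, against 0.656% and 0.211% in SCI replicates 1 and 3 and 0.109% to 0.126% in the sham libraries. Trem1, Hcst and Fcgr4 were lowest in SCI replicate 3, at 57.8%, 59.7% and 63.8% of their mean over the 3 injured libraries. Their order, replicate 2 above 1 above 3, was that of the summed neutrophil markers, at 183%, 76.7% and 40.3% of their mean in replicates 2, 1 and 3. The same order held for the summed markers of platelets (151%, 104.5% and 44.4%) and red blood cells, so it was not particular to neutrophils. Markers of natural killer cells, B and plasma cells and mast cells also had this order, but their sums were low. In SCI libraries they were 0.38 to 0.75, 2.44 to 6.6 and 0.25 to 0.57 FPKM, so their order says little. The other 6, Fcgr1, Fcgr2b, Fcgr3, Fcer1g, Tyrobp and Trem2, were lowest in SCI replicate 1. So were the summed microglial markers (89.0% of their mean) and the summed monocyte and macrophage markers (75.7%). The summed T cell (82.1%) and astrocyte (97.3%) markers were lowest there too, so this was not particular to myeloid markers. Within the microglial and the monocyte and macrophage lists, Arg1, Chil3, F10 and Olfml3 were lowest in SCI replicate 3 and Sall1 in replicate 2. The other genes of these lists were lowest in replicate 1. Trem2 varied least of the 6 members, from 89.8% to 109% of its mean. With 3 libraries these orders are a description, and the part of each cell type in them was not tested. Without SCI replicate 2 the same 9 genes rose.

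**Figure D4:**
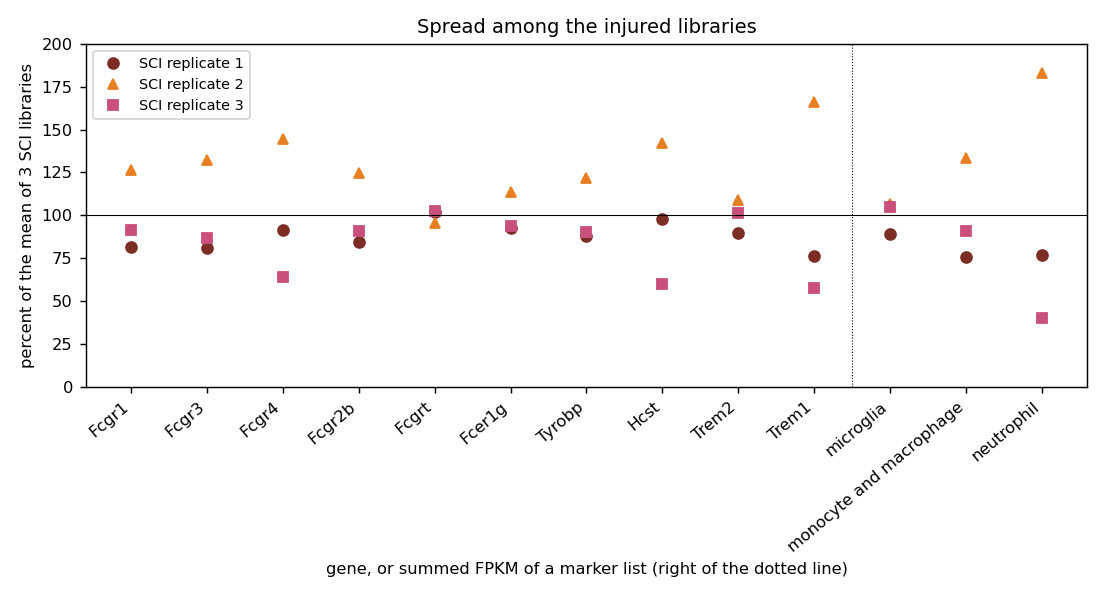
Each SCI library as a percent of the mean of the 3 SCI libraries, for the 10 genes and, right of the dotted line, for the summed FPKM of 3 marker lists. SCI replicate 2 is highest for all genes except Fcgrt; Trem1, Hcst, Fcgr4 and the neutrophil sum have SCI replicate 3 as the lowest.

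Genes that carry the signal onward from an ITAM rose in most cases. Of 23 kinases, adaptors and enzymes of this route, all tested, 18 rose, none fell and 5 did not pass, with a median log2 change of 1.61; 1 of the 23 had no sham library at 1 FPKM. Vav1, an exchange factor for small GTPases, rose to 23.1 ± 3.66 FPKM in SCI against 2.07 ± 0.203 FPKM in sham libraries (log2 change 2.97). Lat2, a membrane scaffold of myeloid and B cells, had a log2 change of 2.94, and the Src-family kinase Lyn 2.71. Syk, the kinase that docks on the ITAM, rose to 8.94 ± 2.70 FPKM in SCI against 1.15 ± 0.170 FPKM in sham libraries (2.18), and Plcg2, the phospholipase below Trem2, rose 6.55-fold (2.29); both were picked for their role. The most abundant of these genes, Fyn (−0.09) and Pik3r1 (−0.18), which many cell types express, did not pass, nor did Malt1 (0.12), Vav2 (−0.01) or Vav3 (0.13).

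The inhibitory side rose as well. Of 21 inhibitory receptors and phosphatases, 19 were tested and 18 rose, but 9 of the 19 had no sham library at 1 FPKM. Lilrb4a, an ITIM receptor of myeloid cells, rose to 47.3 ± 7.08 FPKM in SCI against 1.13 ± 0.403 FPKM in sham libraries (log2 change 4.51). Cd300lf (3.63) and Cd72 (3.26) followed. These 3 overlap neighbouring genes above 1 FPKM, as do Adam17, Cebpa, Cebpb, Dapk1, Fyn, Irf5, Itgam, Lat2 and Stab1, so reads could be shared and their values are uncertain. The phosphatases Ptpn6 (SHP-1) and Inpp5d (SHIP-1), which ITIMs recruit, had log2 changes of 2.89 and 2.53. Sirpa, which binds CD47, rose by 0.34, and Ptpn11 (SHP-2), at 82.8 ± 1.19 FPKM in SCI and 77.5 ± 0.874 FPKM in sham libraries, did not pass (0.09). Clec12a and Siglecg were too low to test.

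Of 16 other receptors that couple to Tyrobp, Fcer1g or Hcst, 11 were tested: 9 rose, none fell and 2 did not pass, and 6 of the 11 had no sham library at 1 FPKM. The C-type lectins Clec4d and Clec4n (Dectin-2), which use Fcer1g, had log2 changes of 4.88 and 2.99. Clec4d reached 46.1 ± 19.1 FPKM in SCI against 0.520 ± 0.125 FPKM in sham libraries. Cd300c2, of the Cd300 receptor family, rose to 43.8 ± 7.66 FPKM in SCI against 4.98 ± 0.717 FPKM in sham libraries. Siglech, a Tyrobp-coupled receptor of microglia, had 4.6 to 5.79 FPKM in SCI and 5.76 to 6.81 FPKM in sham libraries (log2 change −0.25, limma adjusted p = 0.10), and Oscar had −0.29. Under quantile normalization 2 genes of this list were called lower.

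Of the 4 other genes of the Trem cluster, Treml2 alone was tested and rose to 3.20 ± 1.18 FPKM in SCI against 0.120 ± 0.0346 FPKM in sham libraries, having passed the filter through the SCI libraries. Trem3 was at 1.22, 2.50 and 0.50 FPKM in SCI libraries and was listed at 0 in all sham libraries. Treml1 and Treml4 stayed at 1.49 FPKM or less in every library.

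Other immunoglobulin receptors were nearly silent, except Fcrls and Trim21. Fcrls, a microglial Fc receptor-like gene, rose to 134 ± 24.3 FPKM in SCI against 11.4 ± 1.11 FPKM in sham libraries (log2 change 3.44, limma adjusted p = 1.2e-05). Trim21, a cytosolic antibody receptor, was at 3.66 ± 0.173 FPKM in SCI and 2.68 ± 0.490 FPKM in sham libraries (log2 change 0.35, limma adjusted p = 0.058). The other 8 with a value were below 1 FPKM in all libraries. Of the 6 ITAM subunits of T and B cell receptors, Cd79b alone was tested, having passed the filter through the SCI libraries and so bound to differ, at 1.97 ± 1.15 FPKM in SCI against 0.523 ± 0.387 FPKM in sham libraries (log2 change 0.93, limma adjusted p = 0.033). That call ended without SCI replicate 1 or 2, or without sham replicate 1 or 3.

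**Figure D5:**
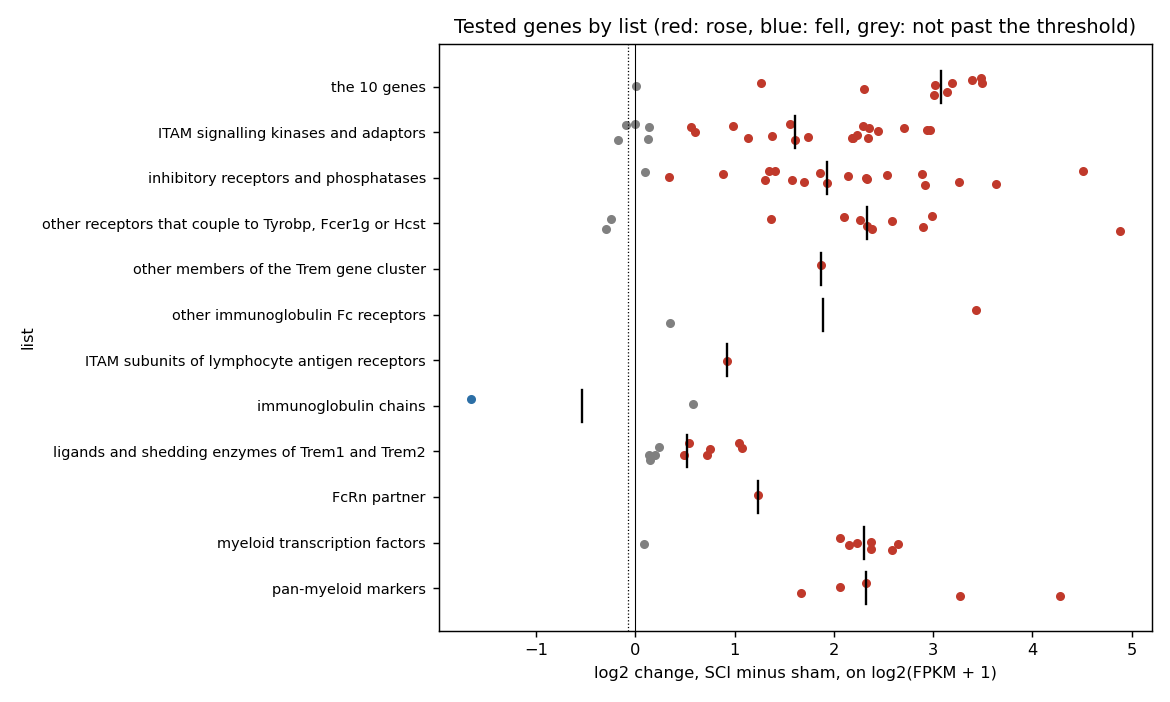
Log2 change (SCI minus sham, on log2(FPKM + 1)) of each tested gene by list, with the list median as a black bar and the median of all genes tested as a dotted line; red rose, blue fell, grey did not pass. The 10 genes have the highest median (3.08), and Ighm, at −1.66, is the only gene in blue.

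No immunoglobulin chain was called higher at the RNA level. Of 12 chains, 10 were too low to test. The immunoglobulin G heavy chains Ighg1, Ighg2b, Ighg2c and Ighg3 were at 0.72 FPKM or less in every library. Igkc did not pass, at 0.93, 7.17 and 3.98 FPKM in SCI and 2.30, 3.73 and 0.52 FPKM in sham libraries. Ighm, the constant chain of immunoglobulin M and not G, fell to 19.1, 19.9 and 18.4 FPKM in SCI libraries. Sham libraries had 60.6, 66.9 and 59.9 FPKM (log2 change −1.66, SE 0.08, limma adjusted p = 1.3e-05). Antibody protein, which could enter from blood, was not measured.

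Of 10 ligands and shedding enzymes of Trem1 and Trem2, 6 rose, none fell and 4 did not pass, with a median log2 change of 0.52. Adam17 (1.07) and Adam10 (0.75), proteases known to shed Trem2, rose, as did the Trem2 ligand Clu (1.04), at 848 ± 81.2 FPKM in SCI against 410 ± 5.20 FPKM in sham libraries. Pglyrp1, a ligand of Trem1 picked for that role, rose 1.72-fold, to 12.8 ± 1.9 FPKM in SCI against 7.40 ± 1.44 FPKM in sham libraries. Apoe, a Trem2 ligand, did not pass (0.24). Of the gamma-secretase genes, which cleave the membrane stub left by shedding, Ncstn (0.54) and Aph1a (0.49) rose, and Psen2 and Psenen did not pass.

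Of 9 transcription factors of myeloid cells, 8 were tested and 7 rose, 1 of them with no sham library at 1 FPKM. Spi1, which encodes PU.1, rose to 20.7 ± 3.39 FPKM in SCI against 2.44 ± 0.0625 FPKM in sham libraries (log2 change 2.64, limma adjusted p = 1.4e-05). Cebpb (2.59), Irf5 (2.38) and Cebpa (2.06) rose too, and Mitf (0.08) did not pass.

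Some other genes had profiles close to those of members, measured as the root mean square difference of log2(FPKM + 1) over the 6 libraries after centring on the sham mean. Nearest to Fcer1g were Itgb2 (0.099), Stab1 (0.11) and Alox5ap (0.11), and nearest to Tyrobp were Arhgdib (0.039), Asf1b (0.057) and Junb (0.070). Nearest to Trem2 were Cenpf (0.063), Pld4 (0.065) and Dlgap5 (0.072), and among the nearest to Fcgrt were Dapk1 (0.038) and Zc3h3 (0.039). The level need not match: Pld4, at 25.8 ± 2.94 FPKM in SCI and 4.53 ± 0.763 FPKM in sham libraries, was close to Trem2 in level too, whereas Cenpf was at 4.52 ± 0.835 and 0.143 ± 0.0839 FPKM. Nor need the ratio of means match, because 1 FPKM is added to every value and shrinks changes from sham levels near 0. Such sham levels were found in Cenpf, Dlgap5 and Asf1b. Dlgap5 was at 5.09 ± 0.726 FPKM in SCI and 0.18 ± 0.03 FPKM in sham libraries. Asf1b was at 13.2 ± 2.99 and 0.823 ± 0.240 FPKM. Closeness to Trem2 or Tyrobp on this scale is therefore not an equal fold rise. These distances describe 6 libraries in 2 groups.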

How the data were processed

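The authors deposited 1 FPKM value per gene and library of mouse cord RNA-seq, with 2 decimals, per the file headers. Tools listed by the submitters' processing notes, without roles, include StringTie 1.3.4d, HISAT2 2.0.4, UMI-tools, edgeR, cutadapt 1.9 and DESeq2, and the build listed is mm9. However, 91.7% of the 36502 identifiers shared with GENCODE M21 had its GRCm38 coordinates, 9 of the 10 members among them (Tyrobp ended elsewhere). How strand and molecular identifiers entered the counting is not given in the sources used here. FPKM sums were 716215 to 734791 per library. Low values of short genes were searched for steps of whole reads: the fullest bin of log2 ratios (width 0.05) to sham replicate 1 held 3.89% to 5.08%, so no depth was recovered. Depth is unknown, and no counting interval is given. FPKM are shares, so an abundant transcript lowers all others.

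The filter kept genes that reached 1 FPKM in 3 or more of the 6 libraries (17435). They were tested on log2(FPKM + 1) by limma 3.58.1 (R 4.3.3), group being the only term and the prior variance following mean expression. The test was also run on simulated data, with independent noise for each gene and spreads taken from these same libraries. Such data hold no shifts shared across a library, so that check cannot speak to them, and its outcome is not reported here. Ratios were compared with exact two-sided permutation tests (scipy 1.17.1). The members and lists were chosen with earlier results of these data known, and lists are described by counts, with no set test. Named genes were the members, then from each list the 3 called genes with the largest change, the 2 most abundant, and any called gene against the list's majority, and the 3 nearest profiles of Fcer1g, Tyrobp, Trem2 and Fcgrt. All other genes were named after their values were seen. Some genes that the rule picks are not reported here. Protein sequences were not used here.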

Additional observations from a re-analysis of the deposited data

How the results depend on the processing

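The 9 rises and the absence of a called fall among the 10 genes held under all 15 alternatives: pseudocounts of 0.1 and 0.5, no filter, a mean of at least 2 FPKM, 3 other scalings, no mean-variance trend, the replicate block and leaving out each library. Their highest adjusted p was 0.018, for Hcst. Calls over all genes ranged from 8354 to 10749. Fcgrt, never called, changed sign when mitochondrial and haemoglobin genes were left out of the scaling (−0.0040), and lay between −0.12 and 0.078 when a library was left out. The ratio Fcgr3/Fcgr4 changed sign with 1 FPKM added (log2 difference 0.053), and Trem2 per pan-myeloid mean lay between −0.23 and 0.0077 when a library was left out. In the Trem cluster 2 genes were called with no filter and 0 at a mean of 2 FPKM. Of the other Fc receptors, 2 were called with no filter, under median-ratio scaling and without the trend. The lymphocyte subunits had 0 calls with no filter or at a mean of 2 FPKM, and 0 to 1 without a library. Quantile normalization called 2 Tyrobp-, Fcer1g- or Hcst-coupled receptors lower. The cause was not tested. Same-numbered libraries did not deviate together (r −0.008, −0.039 and 0.022), so the numbers were not taken as pairs; with the replicate block 9443 genes were called in place of 10024, and no call on a member changed. For the ratios an exact sign-flip permutation test over such pairs cannot go below p = 0.25. Depth is unknown, and sham values under 1 FPKM, as in Trem1, Hcst and 2 of the 3 sham libraries of Fcgr4, make ratios depend on the pseudocount.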
